A study of Homo sapiens with 6 samples.

Results

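The genes described here encode the MHC class I molecule and the machinery that loads it with peptide: the heavy chains HLA-B, HLA-C, HLA-E and HLA-F, the light chain B2M, the peptide transporter subunits TAP1 and TAP2, the loading chaperone TAPBP, and the transcriptional regulator NLRC5. They were chosen by gene symbol and not by their values, though earlier results of these data were known at the time. All 9 were found among 30560 genes in the table, and all 9 were among the 16239 genes that passed a filter of at least 10 normalized counts on average over the 6 samples. RNA was sequenced from HCT116 cells, a long-established line of human colorectal carcinoma that the labels give as wild type. There were 3 samples of cells treated with CPT-11 (irinotecan, a prodrug of a topoisomerase I poison) at 10 µM for 48 hours, and 3 control samples treated with DMSO. The series text speaks of duplicates, whereas the labels and the table give 3 samples a group, and all 6 were used. Whether the 3 samples of each group were grown as separate cultures is not in the labels. The p-values therefore cover the spread among the samples at hand, and that spread may be technical.

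MHC class I molecules show peptides from inside the cell to CD8+ T cells. A heavy chain folds with beta-2-microglobulin in the endoplasmic reticulum, and the transporter TAP brings in peptides made by the proteasome, while tapasin, the TAPBP product, holds the empty molecule beside the transporter and helps it select peptides that bind tightly. In most cells the genes respond to interferons through IRF1 and to NF-kB, and NLRC5 drives them at a promoter module called SXY, to which RFX, CREB/ATF and NF-Y proteins bind. HLA-B and HLA-C are classical, highly polymorphic chains; HLA-E mainly presents signal peptides of other class I chains to the NK receptor CD94/NKG2A, and HLA-F is a nonclassical chain with restricted expression.

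The promoters of these genes are shown because they carry the sequence elements through which the family is known to be controlled together. RefSeq promoter windows on GRCh38.p14 were available for 7 of the 9 genes, namely B2M, HLA-B, HLA-C, HLA-F, TAP1, TAP2 and TAPBP. The 250 bases before each start were searched on both strands for 2 forms of the interferon-stimulated response element, a long one (GAAA, any 2 bases, GAAA) and a shorter one (GAANNGAAA), which differ by 1 base in spacing and can overlap. A search was also made for a form of the NF-kB site (GGG, any 2 bases, TT, any base, CC) and for TGACG followed within 40 bases on the same strand by ATTGG, the X2 and Y boxes of the SXY module. Of 35116 promoter windows, 3.02% held the long interferon form, 6.56% the shorter one, 5.07% the NF-kB form and 1.10% held the X2 and Y pair. Matches are in capitals, each sequence is written 5′ to 3′ on the gene's strand, and a match is a description of letters and not a shown binding site.
HLA-B chr6:31357239-31357366 minus strand: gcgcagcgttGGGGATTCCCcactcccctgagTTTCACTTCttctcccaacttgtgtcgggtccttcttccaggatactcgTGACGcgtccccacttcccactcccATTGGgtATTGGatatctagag
HLA-C chr6:31272158-31272253 minus strand: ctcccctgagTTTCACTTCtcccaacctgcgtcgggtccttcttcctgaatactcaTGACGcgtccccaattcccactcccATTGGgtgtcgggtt
B2M chr15:44711363-44711482 plus strand: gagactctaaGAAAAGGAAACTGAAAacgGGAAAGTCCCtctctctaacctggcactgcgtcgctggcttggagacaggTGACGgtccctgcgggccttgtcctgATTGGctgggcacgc
HLA-F chr6:29723268-29723297 plus strand: ctccccagagTTTCTCTTTCtctcccaacc
TAP1 chr6:32853816-32853845 minus strand: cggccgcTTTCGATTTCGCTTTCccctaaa
TAP1 chr6:32853757-32853786 minus strand: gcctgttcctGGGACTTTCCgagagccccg
TAP2 chr6:32838781-32838809 minus strand: ggctgggGAAGCGAAAGCGAAAgctgccc
TAPBP chr6:33314079-33314105 minus strand: tttggagGAAAGTGAAAGTGAAAggag
TAPBP chr6:33314115-33314144 minus strand: taaccagagcGGGGATTTCCaccgcccctc

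Each of the 7 genes had a window with a match to a form of the interferon element, and a second TAP1 window held none of the matches. The bases shown for TAP1 and TAPBP all lie in exons of the GENCODE annotation, as do 19 of the 30 shown for HLA-F. For these genes the bases before the RefSeq start are thus not all outside annotated transcripts. HLA-B, B2M, TAP1 and TAPBP also held the NF-kB form, and HLA-B, HLA-C and B2M held the X2 and Y pair. The windows of HLA-B and HLA-C were 89.0% identical, against 49.5% for HLA-B and B2M, but the HLA-C window held no match to the NF-kB form.

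The libraries held 15398464 to 18031195 reads on genes in the CPT-11 samples and 15673435 to 17110580 in the controls. Mitochondrial genes took 10.3% ± 0.62 of the reads in CPT-11 samples and 7.24% ± 0.34 in controls (SD, n = 3 each). The library numbered 1 stood farther from the other libraries of its group than those did from each other, in both groups, so the fold change without both is given for each member. Of the 9 colorectal epithelial markers with a row, 7 were tested and 6 were higher (KRT8, KRT18, KRT19, KRT20, CDX2 and CDH1, by 0.40 to 2.30 on the log2 scale). EPCAM did not pass, with 3744 ± 250 normalized counts in CPT-11 samples and 3871 ± 321 in controls. The summed level of the list, as CPM (reads scaled by the library total), was 6284 to 7093 in CPT-11 samples and 3268 to 3731 in controls. Of the leukocyte markers CD3E, CD3D, CD2 and LYZ had no row, and 6 of the 8 others, PTPRC among them, averaged under 10 normalized counts. The remaining pair changed in opposite directions: ITGAM rose to 59.2 ± 1.56 normalized counts in CPT-11 samples, against 8.84 ± 5.603 in controls (limma adjusted p = 1.3e-05), and NCAM1 fell to 2.44 ± 3.39 in CPT-11 samples, against 30.5 ± 5.10 in controls (limma adjusted p = 0.00012). The list summed to 4.95 to 5.13 CPM in CPT-11 samples and 3.51 to 3.59 in controls. Of 6 measured fibroblast and endothelial markers, 4 averaged under 10, VWF did not pass, and COL1A1 carried nearly the whole sum (1068 ± 155 normalized counts in CPT-11 samples and 592 ± 60.4 in controls). That list summed to 58.2 to 79.3 CPM in CPT-11 samples and 33.0 to 39.8 in controls. The part of these marker levels in the results below was not tested. Fewer cells of a type and less RNA per cell cannot be told apart in such bulk samples.

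The 9 genes did not move as a block. TAP1 rose 2.50-fold, HLA-B 1.61-fold, TAP2 1.54-fold and HLA-E 1.20-fold, while TAPBP fell to 0.731 of its control level and HLA-C, HLA-F, B2M and NLRC5 did not pass the test. In all, 4 of the genes were higher at a limma adjusted p below 0.05, where 24.3% of all tested genes were higher, and 1 was lower, where 25.1% of all tested genes were lower (49.4% called in all). The 3 CPT-11 samples lay above all 3 controls for 4 genes and below them for 2, where the groups were apart upward for 27.8% of all tested genes and downward for 28.8% (56.6% in all). The median log2 fold change of the 9 genes was 0.24 and that of all tested genes 0.01, and the median absolute change was 0.26 for the 9 genes and 0.39 for all tested genes. Of the 9, 1 changed at least 2-fold, as did 14.6% of all tested genes. A change of at least 1.5-fold was seen for 3 of the 9, and the share of all tested genes at that limit was not computed. Together the 9 genes took 0.142% ± 0.00851 of the reads in CPT-11 samples and 0.115% ± 0.00488 in controls (SD, n = 3 each).

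**Figure D1:**
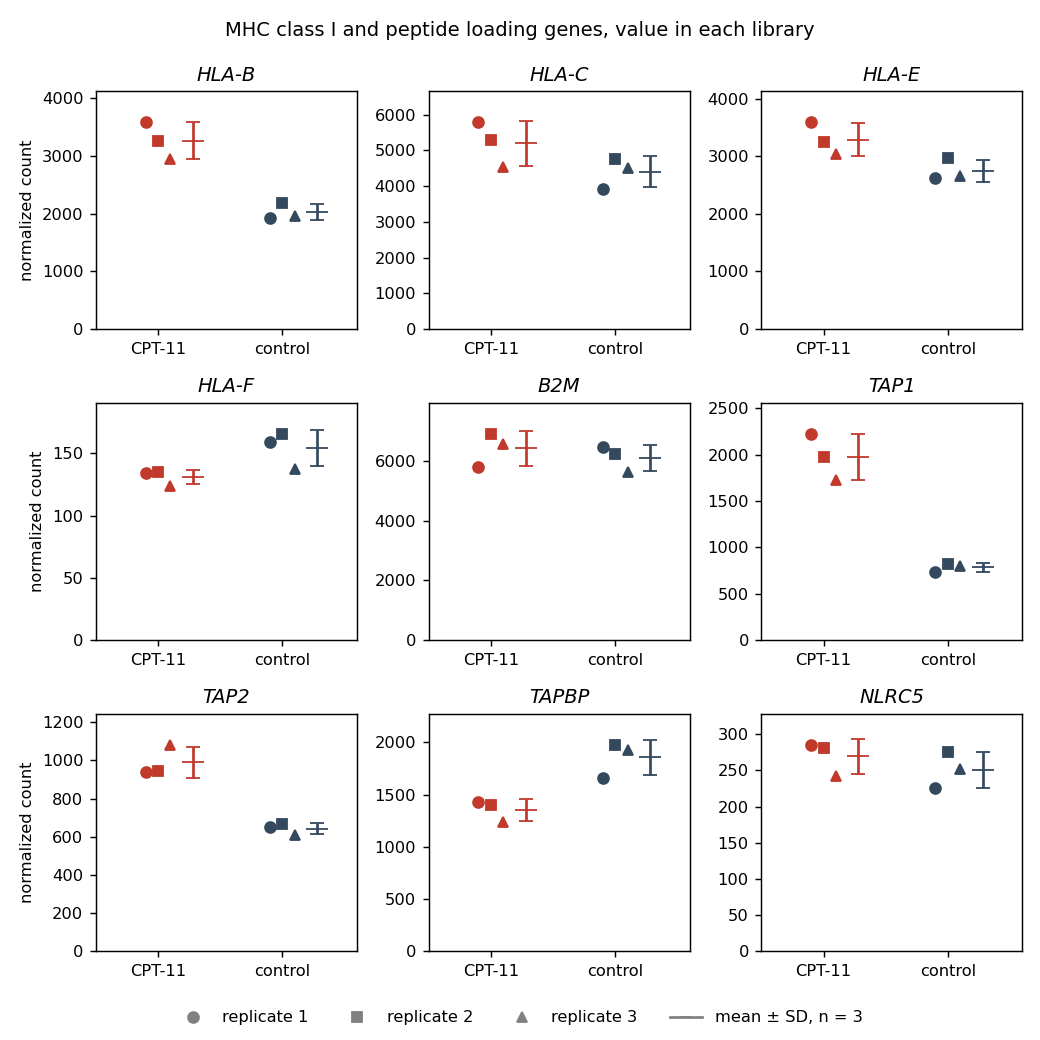
Normalized counts of the 9 genes in each library, with CPT-11 samples left of controls in each panel; points are the 3 libraries of a group and bars the mean with its SD. TAP1 lies at 1727 to 2228 in CPT-11 samples and 734 to 822 in controls, while the B2M and NLRC5 groups overlap.

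Among the heavy chains, HLA-B (ENSG00000234745, chr6:31269491-31357188, minus strand) had 3579.6, 3258 and 2942 normalized counts in CPT-11 samples 1, 2 and 3, against 1926, 2185 and 1957 in controls 1, 2 and 3. Every CPT-11 sample lay above every control, with the highest value in the library numbered 1. The means were 3259.8 ± 319 in CPT-11 samples and 2022 ± 141 in controls, and the log2 fold change was 0.69 (SE 0.09, limma adjusted p = 1.06e-05, n = 3 each). Without both libraries numbered 1 it was 0.58 (limma adjusted p = 1.03e-06). HLA-B shares 18.9% of its exonic bases with AL671883.2 and HLA-C, and 14.2% of the 75-base stretches of its annotated transcripts occur also in other genes, against 1.67% for HLA-E and 17.7% for HLA-F, so how its reads were shared out is uncertain. The class I alleles of HCT116 can also differ from the reference to which the reads were aligned.

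HLA-C (ENSG00000204525, chr6:31268749-31272130, minus strand) had 5780.3, 5278 and 4534 normalized counts in CPT-11 samples, against 3922, 4764 and 4506 in controls. The third CPT-11 sample lay below the second control, so the groups overlapped. Its log2 fold change was 0.24 (SE 0.10, limma adjusted p = 0.0588), which did not pass. The call turned on the setting. It passed when the scaling left mitochondrial genes out (0.32, limma adjusted p = 0.0142), without control 2 (0.30, 0.043) and without CPT-11 sample 3 (0.33, 0.0181), and the value was 0.08 without both libraries numbered 1 (limma adjusted p = 0.367).

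HLA-E (ENSG00000204592, chr6:30489467-30494205, plus strand) had 3585, 3251 and 3029 normalized counts in CPT-11 samples, against 2620.0, 2963 and 2656 in controls. All CPT-11 samples lay above the controls, the lowest of them close to the second control. The log2 fold change was 0.26 (SE 0.09, limma adjusted p = 0.0257), and it no longer passed without both libraries numbered 1 (0.16, limma adjusted p = 0.0541), nor without control 3 (0.24, 0.0899), CPT-11 sample 1 (0.19, 0.0874) or CPT-11 sample 2 (0.26, 0.0731).

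HLA-F (ENSG00000204642, chr6:29722775-29738528, plus strand) was the weakest of the heavy chains, with 134, 135 and 124 normalized counts in CPT-11 samples, against 159, 166 and 138 in controls. Its CPT-11 samples lay below the controls, by a small margin, and the log2 fold change of -0.23 (SE 0.15) did not pass (limma adjusted p = 0.23), nor did the -0.22 without both libraries numbered 1 (limma adjusted p = 0.323). Of its exonic bases 28.5% lie also in exons of other genes, among them its antisense partner HLA-F-AS1. The sources used here do not give the counting rule for reads on shared exons, so HLA-F is uncertain. HLA-F-AS1 fell to 64.7 ± 25.6 normalized counts in CPT-11 samples, against 104 ± 3.61 in controls (limma adjusted p = 0.0205), a call lost without CPT-11 sample 2 (limma adjusted p = 0.143).

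The nonclassical chains HLA-E and HLA-F together, each scaled by exonic length, were 0.355, 0.354 and 0.378 of the classical chains HLA-B and HLA-C together in CPT-11 samples, against 0.418, 0.395 and 0.379 in controls. Most of the nonclassical sum was HLA-E, with a mean of 3288 normalized counts in CPT-11 samples, against 131 for HLA-F. The groups were apart, but the third CPT-11 sample and the third control were nearly equal. The log2 ratio was -1.47 ± 0.05 in CPT-11 samples and -1.33 ± 0.07 in controls (exact two-sided permutation test, p = 0.1, the smallest that 3 against 3 allows, and 0.15 adjusted over the 3 ratios tested).

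B2M (ENSG00000166710, chr15:44711487-44718877, plus strand), the light chain shared by all class I molecules, had 5786, 6921 and 6555 normalized counts in CPT-11 samples, against 6455, 6226 and 5630.4 in controls. The groups overlapped, and the first CPT-11 sample was among the lowest of the 6. The log2 fold change was 0.07 (SE 0.09, limma adjusted p = 0.542). Without both libraries numbered 1 it was 0.19 and passed (limma adjusted p = 0.0198). Scaled by length, B2M was 0.202, 0.265 and 0.282 of the summed heavy chains in CPT-11 samples, against 0.341, 0.281 and 0.275 in controls. The length used for B2M (6079 bases) covers all its annotated exons, so these ratios understate the level of its short mRNA. They serve to compare the groups and do not give the proportion of B2M to heavy chain mRNA. The ratios of the groups overlapped, and the difference of -0.27 on the log2 scale did not pass (exact two-sided permutation test, p = 0.3, and 0.3 adjusted over the 3 ratios).

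**Figure D2:**
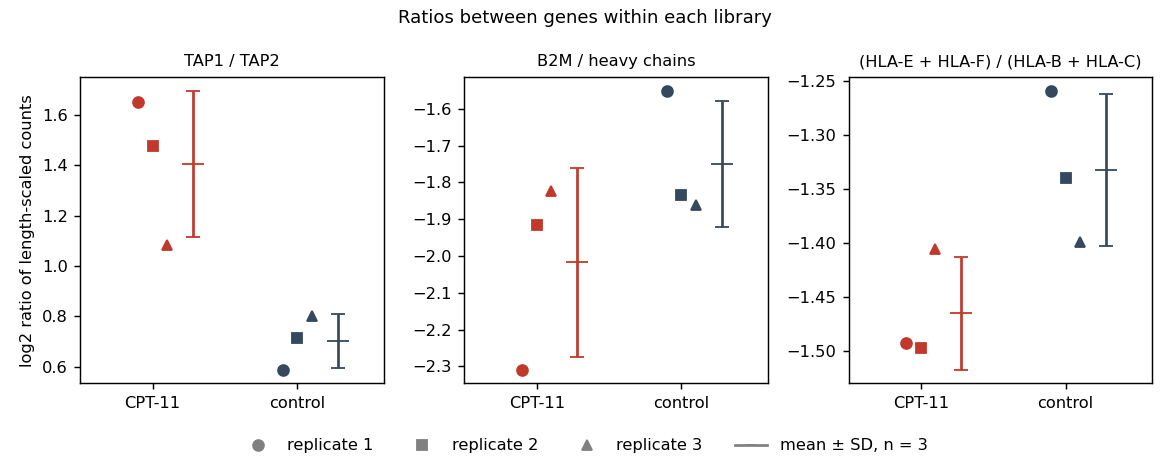
Within-library ratios of length-scaled counts, with CPT-11 samples left of controls; the axis is log2, points are the 3 libraries of a group and bars the mean with its SD. The TAP1 to TAP2 log2 ratio averages 1.40 in CPT-11 samples and 0.70 in controls with no overlap, while the B2M to heavy chain ratios overlap.

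Of the transporter subunits, TAP1 (ENSG00000168394, chr6:32845209-32853978, minus strand) had 2228, 1977 and 1727 normalized counts in CPT-11 samples, against 734, 822 and 802 in controls. The lowest CPT-11 sample was above 2 times the highest control. The log2 fold change was 1.32 (SE 0.10, limma adjusted p = 1.38e-08), above that of 96.2% of tested genes, and 1.19 without both libraries numbered 1 (limma adjusted p = 1.8e-10). TAP2 (ENSG00000204267, chr6:32821833-32838780, minus strand), its partner in the transporter, had 942, 945 and 1082 normalized counts in CPT-11 samples, against 649, 665 and 611 in controls. The groups were again apart, and the log2 fold change was 0.62 (SE 0.10, limma adjusted p = 6.22e-05), or 0.66 without both libraries numbered 1 (limma adjusted p = 3.32e-06). Of TAP2's exonic bases 32.3% lie also in exons of the gene AL669918.1, so its level is uncertain, whereas for TAP1 the share is 9.49%, with PSMB8-AS1.

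Scaled by length, TAP1 was 3.15, 2.78 and 2.12 times TAP2 in CPT-11 samples, against 1.504, 1.64 and 1.74 in controls. The lengths used (4805 bases for TAP1 and 6390 for TAP2) cover all annotated exons. These ratios therefore serve to compare the groups and do not give the proportion of the mRNAs. The groups did not overlap, and the ratio was 1.63-fold higher with CPT-11 (log2 ratio 1.40 ± 0.29 in CPT-11 samples and 0.70 ± 0.11 in controls; exact two-sided permutation test, p = 0.1, the smallest possible, and 0.15 adjusted over the 3 ratios). PSMB9, an immunoproteasome subunit whose annotated span on the opposite strand overlaps TAP1, had 118, 77.0 and 90.4 normalized counts in CPT-11 samples, against 142, 157 and 177 in controls. It fell (log2 fold change -0.75, SE 0.18, limma adjusted p = 0.00254), so that TAP1 had 18.9, 25.7 and 19.1 times the normalized counts of PSMB9 in CPT-11 samples, against 5.17, 5.22 and 4.52 in controls. The RefSeq promoter window of PSMB9 held none of the matches searched. That window begins at chr6:32853942, and the TAP1 stretches shown above, which end at chr6:32853845, lie just upstream of it. They were therefore outside the bases searched for PSMB9, and whether they act on PSMB9 was not tested.

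TAPBP (ENSG00000231925, chr6:33299694-33314387, minus strand) went the other way, with 1430.1, 1403 and 1237 normalized counts in CPT-11 samples, against 1664, 1978 and 1931 in controls. All CPT-11 samples lay below the controls. The means were 1357 ± 105 in CPT-11 samples and 1858 ± 169 in controls, a log2 fold change of -0.45 (SE 0.10, limma adjusted p = 0.000944), or -0.57 without both libraries numbered 1 (limma adjusted p = 2.11e-06). It shares no exonic base with another gene. Its promoter window held the same interferon and NF-kB forms as that of TAP1, which rose. The part of these matches in the direction of either change was not tested.

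NLRC5 (ENSG00000140853, chr16:56989485-57083531, plus strand), the transactivator of class I genes, had 286, 282 and 242 normalized counts in CPT-11 samples, against 226, 275 and 252 in controls. The groups overlapped, and the log2 fold change was 0.10 (SE 0.13, limma adjusted p = 0.546). It was -0.012 without both libraries numbered 1 (limma adjusted p = 0.953).

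**Figure D3:**
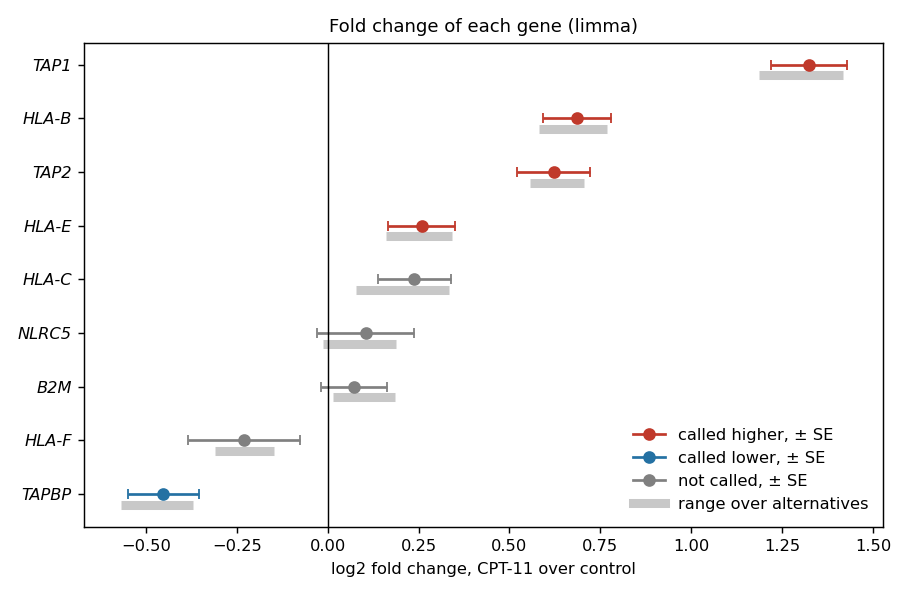
Log2 fold change, CPT-11 over control, of the 9 genes with its SE from the limma fit, on log2(normalized count + 1); grey bars span the values under the alternative settings. TAP1 at 1.32, HLA-B at 0.69 and TAP2 at 0.62 lie farthest above 0, and TAPBP at -0.45 farthest below it.

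Levels per length were compared in TPM (reads per exonic base, scaled to one total in every library), computed from the recovered reads and the deposited exonic lengths. In CPT-11 samples HLA-C was highest at 396 ± 56.0 TPM, followed by HLA-E at 211 ± 22.9, HLA-B at 204 ± 24.5 and B2M at 201 ± 13.8, and the ranges of HLA-E and HLA-B, and of HLA-B and B2M, overlapped. TAP1 at 78.7 ± 11.7, TAPBP at 51.2 ± 4.80 and TAP2 at 29.5 ± 2.097 TPM came next, and HLA-F at 5.76 ± 0.34 and NLRC5 at 4.16 ± 0.44 TPM were lowest. In controls the order was HLA-C at 359 ± 39.0, B2M at 205 ± 7.99, HLA-E at 189 ± 11.3, HLA-B at 136 ± 8.33, TAPBP at 75.3 ± 8.09, TAP1 at 33.5 ± 2.51, TAP2 at 20.6 ± 0.27, HLA-F at 7.26 ± 0.45 and NLRC5 at 4.15 ± 0.42 TPM, with only B2M and HLA-E overlapping among neighbours. TAP1 thus stood above TAPBP in CPT-11 samples and below it in controls. The exonic lengths used cover all annotated exons of each gene, so the order by TPM need not be that of the mRNAs. For B2M that length was 6079 bases, so the level of its short mRNA is understated. The mean of B2M in CPT-11 samples was above that of the controls in normalized counts and below it in TPM.

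**Figure D4:**
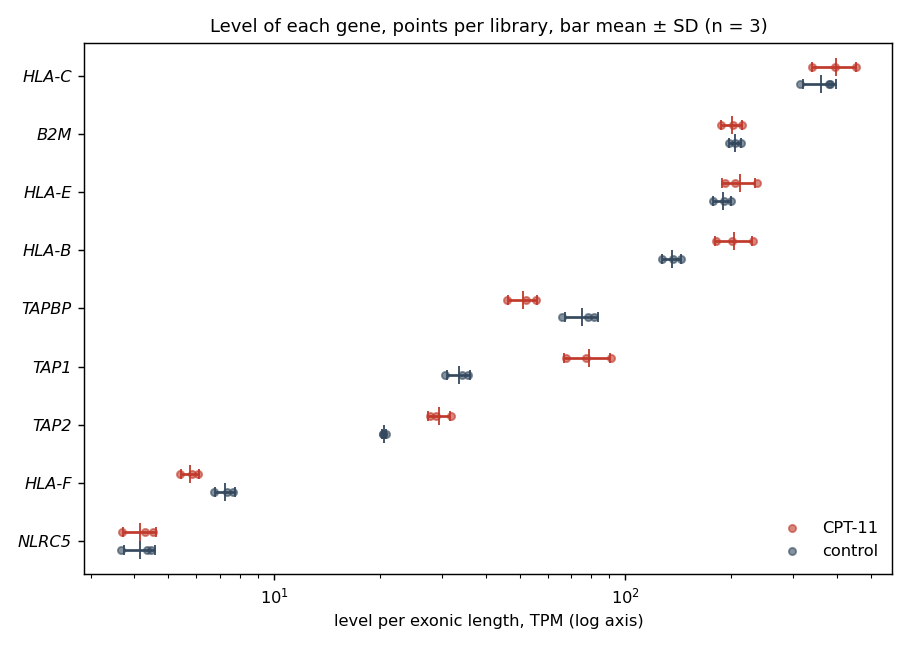
Level of each of the 9 genes in TPM on a log axis, with CPT-11 samples above controls; points are the 3 libraries of a group and bars the mean with its SD. HLA-C is highest in both groups at 396 TPM in CPT-11 samples and 359 TPM in controls on average, and TAP1 and TAPBP change places.

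The libraries were not ranked alike by the 9 genes. The library numbered 1 was the highest CPT-11 sample for 6 genes (HLA-B, HLA-C, HLA-E, TAP1, TAPBP and NLRC5), the second for HLA-F and B2M and the third for TAP2. Among controls the second was highest for 8 genes and the first for B2M. The authors' deposited table gave TAP1 a log2 fold change of 1.33, HLA-B 0.69, TAP2 0.62, TAPBP -0.45 and HLA-E 0.26, each with an adjusted p below 0.05, and in the authors' deposited table HLA-C (0.0651), HLA-F (0.42), B2M (0.629) and NLRC5 (0.694) had adjusted p above it.

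Of 76 entries on 7 lists of loading partners, proteasome subunits, class I-like molecules, regulators and class II genes, 69 were tested, and 17 were higher, 20 lower and 32 not called; their median log2 fold change was 0.07. These counts lie near the shares of all tested genes, of which 24.3% were higher and 25.1% lower with a median of 0.01, so they set the lists as a whole apart in neither direction. When the scaling left mitochondrial genes out, 23 were higher and 13 lower, but the median of all tested genes then also stood higher, at 0.09. The shares of all tested genes higher and lower under that scaling are not given here, so these counts show no tilt of the lists.

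Among 15 loading partners 1 was higher and 4 lower (median 0.07), where 24.3% of all tested genes were higher and 25.1% lower. ERAP2, an aminopeptidase that trims peptides in the endoplasmic reticulum, rose to 172 ± 4.07 normalized counts in CPT-11 samples, against 87.6 ± 15.6 in controls (log2 fold change 0.98, SE 0.17, limma adjusted p = 0.000149). GANAB, the glucosidase II subunit that trims glycans for chaperone binding, fell to 5025 ± 415 in CPT-11 samples, against 8914 ± 195 in controls (-0.83, SE 0.09, limma adjusted p = 3.52e-07). PDIA3, the disulfide isomerase paired with tapasin in the loading complex, fell by 0.37 on the log2 scale (limma adjusted p = 0.00279) and was named after its value was seen. Of the immunoproteasome and PA28 genes 4 of 5 were tested, with 1 higher and 1 lower (median 0.15), against 24.3% and 25.1% of all tested genes. PSME2, the PA28 beta subunit, rose to 1899 ± 50.6 normalized counts in CPT-11 samples, against 1273 ± 100.4 in controls (0.58, SE 0.09, limma adjusted p = 4.7e-05).

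**Figure D5:**
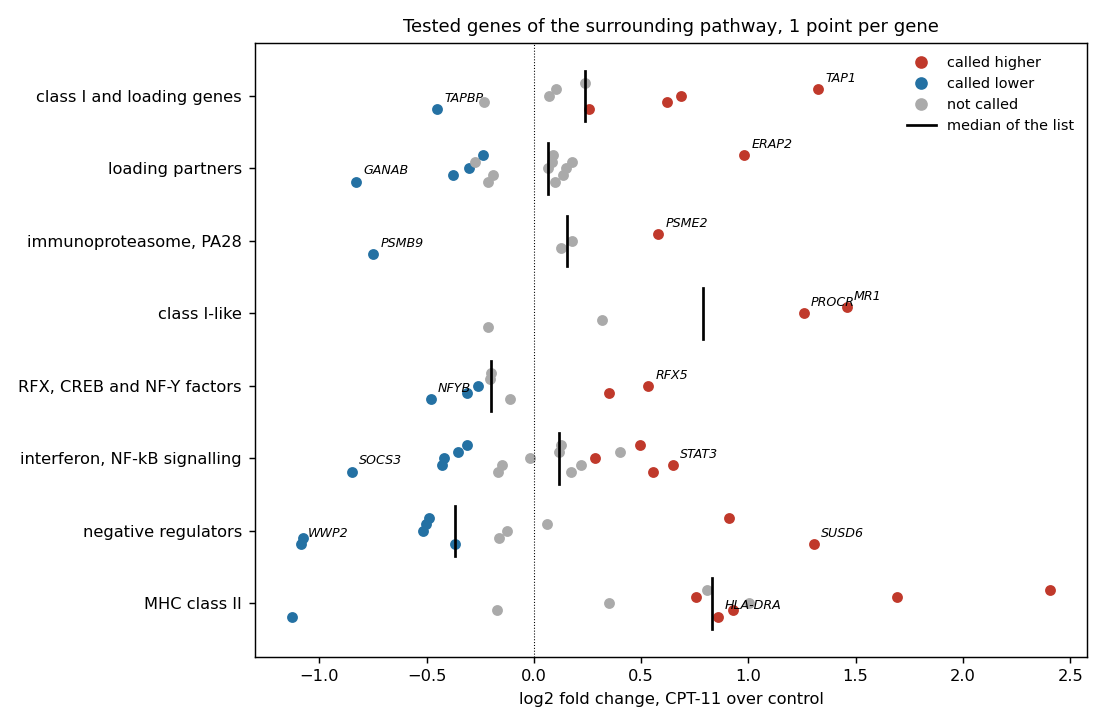
Log2 fold change, CPT-11 over control, of every tested gene on the 7 pathway lists and of the 9 genes, with called genes marked apart from those not called. The class I-like list has a median of 0.79 and the list of genes reported to lower class I a median of -0.37.

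Of the class I-like molecules 4 were tested, with 2 higher and 0 lower (median 0.79), where 24.3% of all tested genes were higher and 25.1% lower. MR1, which presents vitamin B metabolites to MAIT cells, rose to 792 ± 38.5 normalized counts in CPT-11 samples, against 288 ± 27.9 in controls, or 2.75-fold (limma adjusted p = 1.17e-08). PROCR, a class I fold that binds protein C and not peptide, rose to 1801 ± 152 in CPT-11 samples, against 752 ± 56.2 in controls (1.26, SE 0.10, limma adjusted p = 1.47e-08). Of 10 tested class II genes 5 were higher and 1 lower (median 0.83), from low levels, where 24.3% of all tested genes were higher and 25.1% lower. HLA-DRA, the invariant alpha chain of HLA-DR, rose to 265 ± 57.0 normalized counts in CPT-11 samples, against 144 ± 15.9 in controls (0.86, SE 0.17, limma adjusted p = 0.000393).

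Of 8 factors that bind the SXY module with NLRC5, 2 were higher and 3 lower (median -0.20), where 24.3% of all tested genes were higher and 25.1% lower. RFX5, a subunit of the RFX complex, rose to 1606 ± 35.7 normalized counts in CPT-11 samples, against 1110.0 ± 24.3 in controls (0.53, SE 0.09, limma adjusted p = 7.24e-05), and NFYB, a subunit of NF-Y, fell to 311 ± 24.6 in CPT-11 samples, against 435 ± 24.9 in controls (-0.48, SE 0.12, limma adjusted p = 0.00262). Of 17 interferon and NF-kB factors 4 were higher and 5 lower (median 0.12), near the 24.3% and 25.1% of all tested genes. STAT3 rose by 0.65 (SE 0.08, limma adjusted p = 4.32e-06) and SOCS3, an inhibitor of cytokine signalling, fell by 0.85 (SE 0.15, limma adjusted p = 0.000171). IRF1, an activator of class I promoters that was named after its value was seen, had 355 ± 28.4 normalized counts in CPT-11 samples and 243 ± 40.8 in controls (0.56, SE 0.14, limma adjusted p = 0.00316).

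Of 11 tested genes reported to lower class I transcription or surface level, 2 were higher and 6 lower (median -0.37), where 24.3% of all tested genes were higher and 25.1% lower. SUSD6, TMEM127 and WWP2 encode a complex that sends class I molecules to degradation, and they did not move together. SUSD6 rose 2.47-fold (842 ± 21.2 normalized counts in CPT-11 samples and 340 ± 14.1 in controls, limma adjusted p = 1.6e-08), WWP2, its ubiquitin ligase, fell by 1.09 on the log2 scale (385 ± 17.0 in CPT-11 samples and 820 ± 72.7 in controls, limma adjusted p = 2.55e-07), and TMEM127, named after its value was seen, rose by 0.91 (limma adjusted p = 2.35e-07). EZH2, the methyltransferase of a repressive chromatin complex, also named afterwards, fell to 777 ± 39.5 in CPT-11 samples, against 1640 ± 106 in controls (limma adjusted p = 5.22e-08).

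Genes beside the 9 were examined because 7 of the 9 lie in the MHC on chromosome 6. Within 50 kb of a member or overlapping it, 23 of 40 other genes were tested, 4 higher and 5 lower, where 49.4% of all tested genes were called. Higher were HCP5 (0.91), MICA (0.50), AL645933.2 (0.72) and WDR46 (0.42), and lower were HLA-F-AS1, PSMB9, SPG11 (-0.32), RPS18 (-0.25) and CPNE2 (-0.30), as log2 fold changes. Of these, AL645933.2, HLA-F-AS1, SPG11, RPS18 and CPNE2 lost the call under at least 1 alternative. Between the outermost members on chromosome 6, 97 other protein-coding genes were tested, of which 17 were higher and 20 lower, with a median of -0.01, and 38.1% were called, against 49.4% of all tested genes. Fold changes differed with the annotated span of a gene. Tested genes with a span like that of HLA-B (87.7 kb) had a median log2 fold change of -0.12. Those like NLRC5 (94.0 kb) had one of -0.13, while for the spans of the other 7 members the medians were 0.14 to 0.17. The annotated span of HLA-B overlaps HLA-C and holds only 3051 exonic bases. Whether long genes are the right comparison for HLA-B is therefore uncertain. The log2 fold changes of HLA-E (0.26) and HLA-C (0.24) stand beside medians of 0.17 for genes of their span. The part of the span in the members' values was not tested.

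Genes with a pattern most like 3 of the members were found by Euclidean distance over the 6 samples, among 11626 protein-coding genes, on log2 values centred on the control mean. For TAP1 they were ABCG4 (0.099), NCDN (0.135) and PLEKHN1 (0.155), where the median distance was 2.34. For NLRC5 they included NDUFB10 (0.074) and CTNNBIP1 (0.092), and for B2M they were MTPN (0.028), METTL2B (0.043) and CXADR (0.052), where the median distances were 0.759 and 0.757.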

How the data were processed

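RNA from 3 CPT-11 and 3 DMSO control samples of HCT116 was sequenced. Build GRCh38 and, without roles, edgeR 3.24.3, DESeq2 1.22.1, featureCounts 1.6.2, HISAT2 2.1.0, fastp 0.19.3 and StringTie 1.3.4d are listed in the submitters' processing notes. For each sample the authors deposited a normalized signal for every gene (the normalized count), equal to reads divided by a size factor, from which whole reads were recovered (100% of values whole within 0.001 read). Per the file headers, log2 fold changes and p-values were deposited too. The sources used here do not give the counting rule for multi-mapped or overlapping reads.

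The genes and lists were chosen with earlier results of these data known. In R 4.3.3, log2(normalized count + 1) was tested by limma 3.58.1 with a trend of variance on the mean, on a scale that understates changes of low genes, for genes averaging at least 10, with Benjamini-Hochberg adjustment over all 16239, called below 0.05. Values after ± are SDs (n = 3). A fold change is CPT-11 over control. Within-library ratios used an exact two-sided permutation test. Alternatives were edgeR 4.0.16 and DESeq2 1.42.0 on recovered reads, other scalings, filters and pseudocounts, a replicate block, and libraries left out, one of them (both libraries numbered 1) added after seeing the data. Of each list, up to 2 called genes with the largest change and a mean of at least 50 are named, beside all 9 genes, called neighbours and the nearest patterns; genes named otherwise are marked, and 1 of the nearest patterns is not reported here. Exons came from GENCODE, promoters from RefSeq. No sequence was read by coordinate.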

Additional observations from a re-analysis of the deposited data

How the results depend on the processing

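Across 17 alternative settings of the fit, TAP1 (1.19 to 1.42), HLA-B (0.58 to 0.77), TAP2 (0.56 to 0.70) and TAPBP (-0.57 to -0.37) kept their call and direction. Genes called numbered 6812 to 8516 against 8022, and 6881 to 7971 with 1 library left out. Members higher numbered 3 to 5 with 1 library left out, and members lower 1. Pathway genes lower numbered 13 when the scaling left mitochondrial genes out and 13 with the replicate block, against 20. The scaling without mitochondrial genes put the median log2 fold change of all tested genes at 0.09, against 0.01. With 1 library left out, pathway genes higher numbered 14 to 17 and lower 15 to 18. The log2 difference of HLA-E and HLA-F to HLA-B and HLA-C was -0.45 with means of log2 values in place of sums. Such means count HLA-F (5.76 TPM in CPT-11 samples, log2 fold change -0.23) as much as HLA-E (211 TPM, 0.26), whereas the sum is mostly HLA-E. With 1 library left out, the log2 difference by sums was -0.17 to -0.10. That of TAP1 to TAP2 was 0.58 to 0.86, and that of B2M to the heavy chains -0.36 to -0.12. NLRC5 changed sign without replicate 1 of both groups (-0.012; the cause was not tested). HLA-C also passed with scaling by library total (limma adjusted p = 0.0368), edgeR (0.0466), without control 2 (limma, 0.043) and without CPT-11 sample 3 (limma, 0.0181). HLA-E did not pass under the replicate block (limma adjusted p = 0.0949). The deviations of same-numbered samples had correlations of -0.23, -0.006 and -0.10, which show no shared effect of the number. With 3 samples a group they cannot exclude that same-numbered samples were handled together. The replicate block left 6812 genes called. Of 37 pathway genes called, 25 were called in every alternative that tested them and 12 lost the call in at least 1. The depth of at least 15398464 reads per library left HLA-F at 118 to 159 reads, so small changes of it were not detectable.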
